A study of Mus musculus with 6 samples.

Results

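The genes described here encode the calcium, calcineurin and NFAT pathway of naive CD8 T cells, compared between LAIR-1-deficient and wild type mice. They were chosen by symbol, as 10 of the 14515 gene rows of the count table: Stim1, Orai1, Ppp3ca, Ppp3cb, Ppp3cc, Ppp3r1, Nfatc1, Nfatc2, Nfatc3 and Itpkb. All 10 were found and all 10 passed the filter on low counts. The protein that Lair1 encodes, LAIR-1, is a collagen receptor that inhibits leukocytes. The series measured RNA from the spleens of 3 wild type (Lair1+/+) and 3 LAIR-1-deficient (Lair1-/-) mice, 1 library per mouse, from 100000 sorted cells each that carried CD45, CD3 and CD8 and lacked CD44. No agent was given. The sources used here name neither the strain, age and sex of the mice nor the part of Lair1 that the allele removes.

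When the T cell receptor is triggered, phospholipase C gamma makes inositol trisphosphate, which opens channels in the endoplasmic reticulum and empties its calcium store. STIM1 senses the loss and opens the plasma membrane channel ORAI1. Calcium that enters binds calmodulin, which activates the phosphatase calcineurin, and calcineurin removes phosphates from NFAT transcription factors so that they move into the nucleus. In resting naive cells NFAT proteins are mostly phosphorylated and cytoplasmic, so RNA levels describe how much of the machinery a cell transcribes and not whether it is switched on.

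No difference between the genotypes passed the test for any of the 10 genes. Of 9565 genes tested with edgeR's quasi-likelihood test, only Lair1 passed at an adjusted p under 0.05, which is 1 gene or 0.0105%. Lair1 itself was not called without wild type mouse 1. Of the 10 pathway genes 0 were called, and each had an adjusted p of 0.9999. DESeq2 and limma-voom called 0 of the 10 as well. An unadjusted p under 0.05 was reached by 0 of the 10, against 3.25% of all tested genes, and the wild type and Lair1-/- libraries overlapped for all 10, where 8.38% of tested genes had groups that did not overlap. The smallest unadjusted p among them was 0.147, for Ppp3cb. Log2 fold changes (Lair1-/- over wild type) were above 0 for 4 genes and below 0 for 6, and their median was -0.01, beside a median of 0.00 over all tested genes.

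The libraries were deep enough to bound these differences. Counts assigned to genes summed to 7974206 to 9187017 in wild type and to 5519748 to 7296424 in Lair1-/- libraries, so the deepest Lair1-/- library had fewer counts than the shallowest wild type library. The 10 genes together held between 3018 and 5090 counts per library, and a single gene between 16 (Itpkb) and 1023 (Nfatc1). For 10 of 10 genes the 95% interval of the fold change stayed inside 2-fold either way, and for 9 of 10 inside 1.5-fold, against 85.9% and 63.2% of all tested genes. The exception at 1.5-fold was Itpkb, which had the fewest counts. In bulk RNA, fewer cells of a type and less RNA per cell cannot be told apart, and the counts show neither protein nor calcium flux.

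Lair1 matched the labels, at 58, 32 and 43 counts in wild type mice 1 to 3 and at 2, 1 and 1 in Lair1-/- mice 1 to 3. Defining markers of CD8 T cells were present in every library. Cd8b1 was at 1457 to 1577 CPM (TMM-scaled counts relative to library size, as edgeR computes them), the highest in the mean over the 6 libraries. Cd8a was at 870 to 989 CPM and Cd3e at 1147 to 1634 CPM. The mean of Cd3e was 1578 CPM over mouse 1 of both genotypes and 1266 CPM over the other libraries. RNA of Cd44, whose protein the sorted cells lacked, was at 11.2 to 21.8 CPM. Markers of other cells summed to less. The range was 35.7 to 42.7 CPM in wild type and 33.1 to 41.2 CPM in Lair1-/- libraries for 9 B cell genes (highest Cd79b), 212 to 256 and 211 to 220 CPM for 15 myeloid genes (Ctss), 43.8 to 59.0 and 48.6 to 63.5 CPM for 6 NK cell genes (Eomes), and 10.3 to 14.5 and 11.4 to 16.1 CPM for 5 CD4 T cell genes (Ikzf2). Single genes made up most of 2 of these sums, with Eomes at 38.1 to 58.7 CPM and Ctss at 136 to 172 CPM. Under 1 CPM in every library were 3 of the 6 NK cell genes and 5 of the 15 myeloid genes. Every gene row of the count table held a count in some library, so none of these markers could be at 0 in all. Pax5 and Klra8, also listed for B and NK cells, had no row. Lyz2 and Ncr1 were at 0 in 4 and 5 of the 6 libraries. Of 6 erythroid and platelet genes, haemoglobin beta, named Beta-s in the table, was highest and varied most, at 34.2, 166 and 74.2 CPM in wild type mice 1 to 3 and 33.7, 26.9 and 140 CPM in Lair1-/- mice 1 to 3. The part of other cells in the levels below was not tested.

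**Figure D1:**
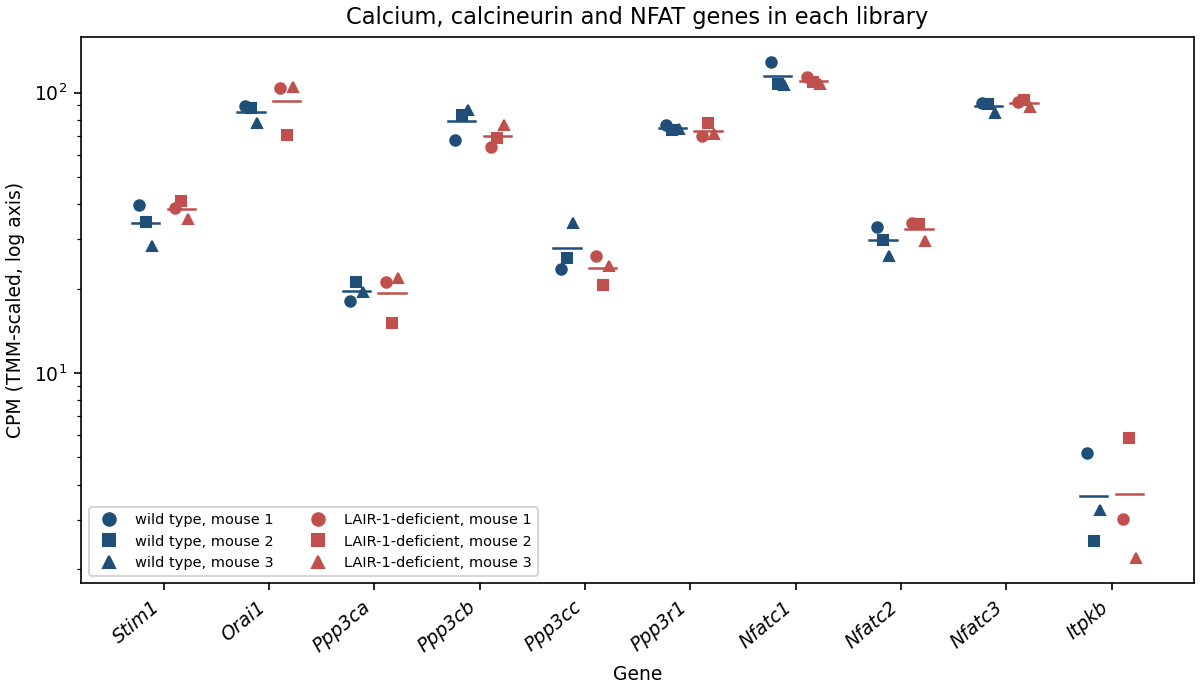
Level of each of the 10 genes in each library, in TMM-scaled CPM on a log axis; symbols stand for the mouse number, colours for the genotype, and horizontal bars for the mean of 3 mice. The wild type and Lair1-/- symbols overlap for every gene, and Itpkb lies far below the other genes, between 2.19 and 5.87 CPM.

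Store-operated calcium entry was represented by its sensor and its channel. Stim1 (ENSMUSG00000030987.5, plus strand of chromosome 7 from 102267806 to 102437319 in GRCm38, as are all positions here) encodes the calcium sensor of the endoplasmic reticulum. It was at 39.7, 34.5 and 28.3 CPM in wild type mice 1 to 3 and at 38.9, 41.1 and 35.6 CPM in Lair1-/- mice 1 to 3. The lowest value was that of wild type mouse 3, and the 2 other wild type mice lay within or beside the Lair1-/- range. Its log2 fold change came to 0.17, with a 95% interval of -0.12 to 0.47. It was 0.05 without wild type mouse 3 and 0.29 without wild type mouse 1, so its size rests on single libraries.

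Orai1 (ENSMUSG00000049686.14, plus strand of chromosome 5 from 123015074 to 123030456) encodes the pore of the calcium release-activated channel. Its levels were 89.9, 87.8 and 78.0 CPM in wild type and 104, 70.6 and 105 CPM in Lair1-/- mice 1 to 3. Lair1-/- mice 1 and 3 lay above every wild type mouse and Lair1-/- mouse 2 lay below them all. The group SD was accordingly 19.6 CPM in Lair1-/- and 6.37 CPM in wild type cells (n = 3 each). Between genotypes the estimate for Orai1 was 0.13 on the log2 scale (95% interval -0.15 to 0.42). Single libraries moved it both ways. Without Lair1-/- mouse 3, Lair1-/- mouse 1 or wild type mouse 3 it was 0.04, 0.04 and 0.07. Without Lair1-/- mouse 2, whose library was also the shallowest, it was 0.295 with an unadjusted p of 0.0224 and no call after edgeR's adjustment.

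Calcineurin is a dimer of a catalytic A subunit, of which there are 3 genes, and a regulatory B subunit. Ppp3ca (ENSMUSG00000028161.17, plus strand of chromosome 3 from 136670124 to 136937727) encodes the alpha form of the A subunit. It was at 18.0, 21.1 and 19.5 CPM in wild type and at 21.2, 15.1 and 21.7 CPM in Lair1-/- mice 1 to 3. As for Orai1, Lair1-/- mouse 2 had the lowest value and Lair1-/- mouse 3 the highest. On the log2 scale the difference for Ppp3ca was -0.01 (95% interval -0.36 to 0.34).

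Ppp3cb (ENSMUSG00000021816.11, minus strand of chromosome 14 from 20499364 to 20546573) encodes the beta form. It was at 67.6, 83.4 and 86.5 CPM in wild type and at 63.9, 68.8 and 76.8 CPM in Lair1-/- mice 1 to 3. The Lair1-/- value was the lower one for each mouse number, though the labels state no pairing by number. The overlap between the groups came from wild type mouse 1. For Ppp3cb the log2 fold change was -0.18, with a 95% interval of -0.43 to 0.07 and an unadjusted p of 0.147. Without wild type mouse 1 it was -0.28, with an unadjusted p of 0.0342 and no call after edgeR's adjustment, and without wild type mouse 3 it was -0.11, with an unadjusted p of 0.40.

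Ppp3cc (ENSMUSG00000022092.11, minus strand of chromosome 14 from 70217865 to 70289471) encodes the gamma form. It was at 23.6, 25.6 and 34.2 CPM in wild type and at 26.2, 20.6 and 24.1 CPM in Lair1-/- mice 1 to 3. Wild type mouse 3 stood above the 5 other libraries. Its estimated log2 fold change was -0.23, with a 95% interval of -0.57 to 0.11. It was -0.06 without wild type mouse 3 and -0.33 without wild type mouse 1.

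Ppp3r1 (ENSMUSG00000033953.10, plus strand of chromosome 11 from 17159263 to 17200375) encodes the calcium-binding B subunit. Its levels were among the steadiest, at 76.4, 73.8 and 74.2 CPM in wild type and 70.1, 78.1 and 71.4 CPM in Lair1-/- mice 1 to 3. The wild type values lay inside the Lair1-/- range, and the log2 fold change was -0.03 (95% interval -0.25 to 0.19). These counts carry a limit of annotation. A transcript of the neighbouring gene Wdr92 on the same strand shares 462 of the 3228 exon bases of Ppp3r1 (14.3%) in GENCODE vM21, and Wdr92 held 6912 to 12631 counts per library against 439 to 674 for Ppp3r1. The sources used here do not say how reads in the shared exons were assigned, so the level of Ppp3r1 is uncertain. The log2 fold change of Wdr92 was -0.01 (95% interval -0.20 to 0.18).

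The 3 catalytic genes contributed in like proportions in both genotypes. Per base of annotated exon, Ppp3cb supplied 44.5% of the catalytic counts in wild type and 44.7% in Lair1-/- cells (means of 3 mice). The mean share per exon length was 45.8% and 44.5% for Ppp3cc and 9.77% and 10.8% for Ppp3ca. Across libraries the share per exon length lay between 39.9% and 48.1% for Ppp3cb, between 42.5% and 49.3% for Ppp3cc and between 8.42% and 11.7% for Ppp3ca, and the groups overlapped for each. Without correction for length, the shares of counts were 62.6% ± 1.33 and 62.0% ± 4.26 for Ppp3cb, 21.9% ± 2.37 and 21.0% ± 2.25 for Ppp3cc, and 15.6% ± 1.42 and 17.1% ± 2.36 for Ppp3ca (SD, n = 3 each). The exact binomial 95% interval of a single library's share of counts was 58.6 to 65.1% for Ppp3cb in wild type mouse 1, and like intervals in this report cover counting error only.

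**Figure D2:**
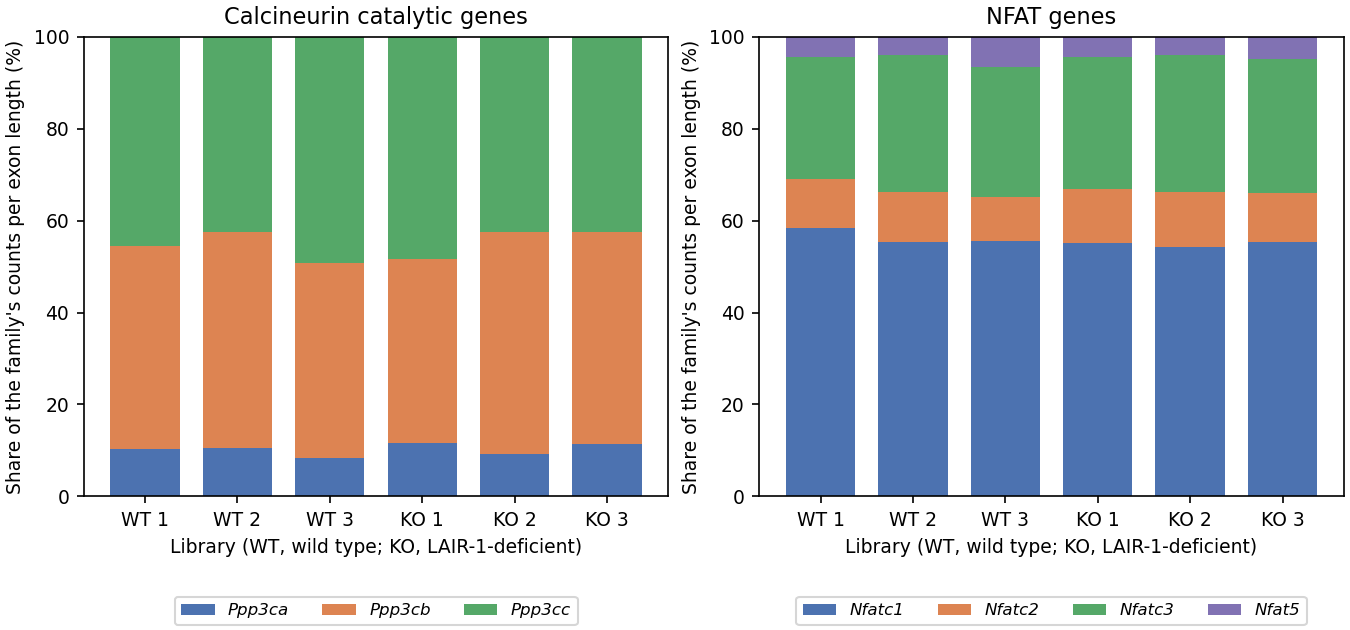
Share of each gene in the summed counts per exon length of its family, for the 3 calcineurin catalytic genes (left) and for the NFAT genes in the table (right), with 1 bar per library. Ppp3cb and Ppp3cc each take between 39.9% and 49.3% of the catalytic total in every library, and Nfatc1 takes between 54.2% and 58.4% of the NFAT total.

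The transcription factor genes Nfatc1, Nfatc2 and Nfatc3, whose products calcineurin controls, were each detected well above the filter. Nfatc4, a further family member under calcineurin's control, had no row in the count table and could not be analysed. Nfatc1 (ENSMUSG00000033016.16, chromosome 18), whose product is known for inducing its own gene after activation, was at 129, 107 and 106 CPM in wild type and at 113, 109 and 108 CPM in Lair1-/- mice 1 to 3. The mouse 1 libraries of both genotypes lay above the 4 others, with means of 121 and 108 CPM. The log2 fold change between genotypes was -0.06 (95% interval -0.28 to 0.16). Without wild type mouse 1 it was 0.04, and without wild type mouse 3 it was -0.11.

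Nfatc2 (ENSMUSG00000027544.16, minus strand of chromosome 2 from 168476410 to 168601657) encodes NFAT1, the form best known from resting T cells. It was at 33.2, 29.9 and 26.1 CPM in wild type and at 34.3, 34.0 and 29.5 CPM in Lair1-/- mice 1 to 3. The Lair1-/- value was the higher one for each mouse number, as it was for Nfatc3, though the labels state no pairing by number. Of the wild type mice, 2 lay within the Lair1-/- range. The log2 fold change was 0.13, with a 95% interval of -0.15 to 0.42. It was 0.05 without wild type mouse 3 and 0.22 without wild type mouse 1.

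Nfatc3 (ENSMUSG00000031902.10, plus strand of chromosome 8 from 106058840 to 106130537), a further calcineurin-dependent family member, was at 91.8, 91.1 and 84.8 CPM in wild type and at 92.8, 93.9 and 88.9 CPM in Lair1-/- mice 1 to 3. Its 6 values spanned 1.11-fold from lowest to highest. Its log2 fold change was 0.04 (95% interval -0.17 to 0.25), so a difference of 1.5-fold lay outside the interval. On the opposite strand, Esrp2 overlaps 219 exon bases of Nfatc3 (1.87%).

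Nfatc1 was the leading NFAT gene in every library. Its mean share of the NFAT counts per exon length was 56.4% in wild type and 54.9% in Lair1-/- cells, followed by 28.2% and 29.2% for Nfatc3 and by 10.4% and 11.5% for Nfatc2. The remainder was Nfat5, a family member that responds to osmotic stress and does not depend on calcineurin, at 5.05% and 4.38%. Without correction for length, the mean shares of counts were 44.2% and 42.9% for Nfatc1 and 34.6% and 35.9% for Nfatc3. They were 11.5% and 12.7% for Nfatc2 and 9.70% and 8.42% for Nfat5. Where along a transcript the reads fall is not known, so the size of the lead of Nfatc1 depends on the scale. As a level, Nfat5 ranged from 18.7 to 31.4 CPM in wild type and from 19.7 to 23.2 CPM in Lair1-/- libraries.

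Itpkb (ENSMUSG00000038855.10, plus strand of chromosome 1 from 180330485 to 180424802) encodes a kinase that converts inositol trisphosphate to inositol tetrakisphosphate and limits calcium signals in lymphocytes. It had 41, 23 and 29 counts in wild type and 21, 33 and 16 counts in Lair1-/- mice 1 to 3, or 5.17, 2.52 and 3.25 CPM and 3.03, 5.87 and 2.19 CPM. Wild type mouse 1 and Lair1-/- mouse 2 were the high libraries, so the groups overlapped fully. The log2 fold change was 0.00, with a 95% interval of -0.82 to 0.82. Part of this width is counting error. The exact Poisson 95% interval ran from 4.04 to 8.24 CPM in Lair1-/- mouse 2 and from 1.25 to 3.55 CPM in Lair1-/- mouse 3.

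**Figure D3:**
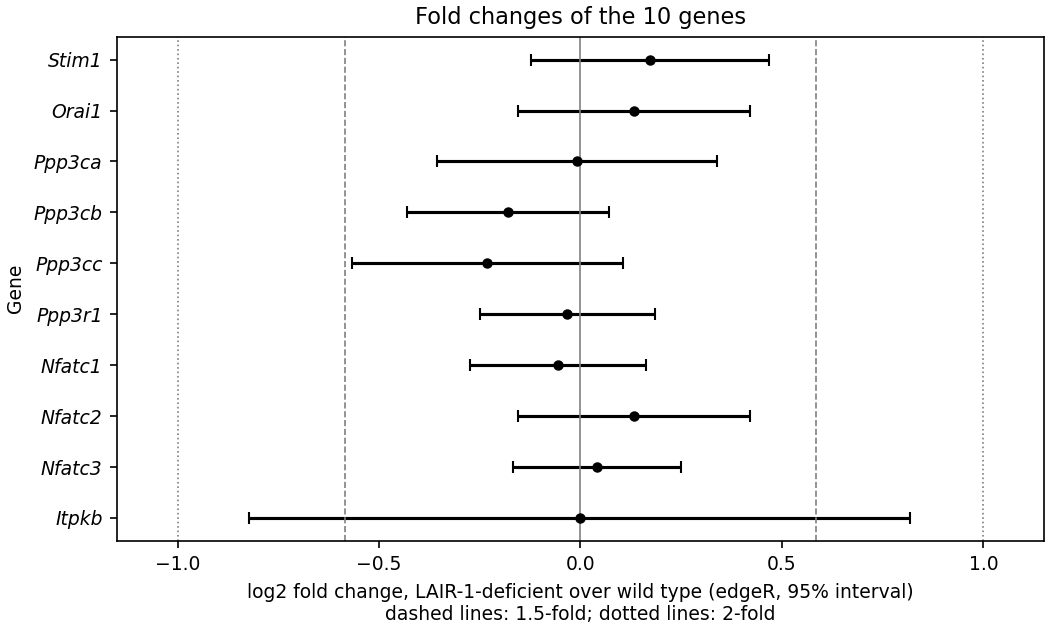
Log2 fold change of each of the 10 genes (Lair1-/- over wild type, edgeR) with its 95% interval; dashed lines mark 1.5-fold and dotted lines 2-fold. Every interval includes 0 and stays within the dotted lines, and the interval of Itpkb alone, from -0.82 to 0.82, passes the dashed lines.

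Levels were compared between genes after division by the length of annotated exons, as CPM per kilobase. The sources used here do not say where along a transcript the reads fall, and this scale would misplace long genes if reads came from 1 end only. Orai1 led at 37.1 ± 2.78 in wild type and 40.6 ± 8.54 CPM per kilobase in Lair1-/- cells (SD, n = 3 each). It was followed by Ppp3r1 at 23.2 ± 0.447 and 22.7 ± 1.33 and by Nfatc1 at 15.3 ± 1.71 and 14.7 ± 0.399 CPM per kilobase. The place of Ppp3r1 in this order is uncertain, because the assignment of reads in exons shared with Wdr92 is not known. Ppp3cc, Ppp3cb and Nfatc3 came next with ranges that overlapped, between 6.91 and 11.5 CPM per kilobase over the 6 libraries. Stim1 (2.73 to 3.96) and Nfatc2 (2.47 to 3.24) overlapped as well. Ppp3ca (1.51 to 2.18 CPM per kilobase) and Itpkb (0.209 to 0.561) closed the order, each apart from its upper neighbour. The channel gene thus exceeded its sensor gene on this scale in every library.

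The genes differed in how much they varied between libraries. The SD of log2 CPM over the 6 libraries was 0.05 for Nfatc3 and 0.06 for Ppp3r1. Among tested genes within 1.5-fold of the same level, 2.51% of 1117 had a smaller SD than Nfatc3 and 3.08% of 1332 had a smaller SD than Ppp3r1. For Ppp3r1 the choice of genes of like level rests on its uncertain level. At the other end was Orai1, with an SD of 0.23, where 91.2% of 1131 genes of like level varied less. Nfatc1, Nfatc2 and Ppp3ca were near the middle (34.3%, 41.3% and 53.9% of genes of like level varied less). The share was 72% for Stim1, 76.6% for Ppp3cb, 80.5% for Ppp3cc and 81.7% for Itpkb. Itpkb had the largest SD, 0.53, in absolute terms. The genes outside the pathway whose centred log2 CPM came closest to its profile over the 6 libraries were Sh3rf1, Rcor3, Ttbk2, Kif13b and Mgrn1, with root mean square differences of 0.07, 0.12, 0.17, 0.18 and 0.22. Sh3rf1, Rcor3 and Kif13b were at 0.68 to 3.91 CPM, where counting error is large.

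Genes around the 10 in the same pathway were measured from lists. Of 145 listed genes, 137 were in the table and 111 passed the filter. In edgeR 0 of the 111 were called, as in DESeq2 and limma-voom, while 5 positive and 3 negative estimates had an unadjusted p under 0.05, that is 8 of 111, where 3.25% of all tested genes did so. Estimates were positive for 64 and negative for 47, and their median log2 fold change was 0.03 beside 0.00 over all tested genes. The groups did not overlap for 8 higher and 5 lower genes, where 4.3% and 4.09% of all tested genes did so.

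Calcium release and entry genes split evenly, with 6 positive and 5 negative of 11 tested and a median log2 fold change of 0.03. Itpr3, a channel that inositol trisphosphate opens, had a mean of 29.9 ± 2.68 CPM in wild type and of 38.9 ± 7.39 CPM in Lair1-/- cells (SD, n = 3 each). On the log2 scale the difference was 0.38 (95% interval 0.06 to 0.69), and the groups overlapped. Esyt1, a tether between the endoplasmic reticulum and the plasma membrane, was at 280 ± 10.6 and 321 ± 9.41 CPM, without overlap between groups, and had a log2 fold change of 0.20. Plcg2, the phospholipase C gamma best known from B cells, went the other way, at 30, 41 and 26 counts in wild type and 20, 8 and 14 counts in Lair1-/- mice 1 to 3. Its groups did not overlap, and its log2 fold change of -0.83 (95% interval -1.63 to -0.02) had an unadjusted p of 0.0448 and an adjusted p of 0.9999 in edgeR. The gene of this list with the highest CPM was Saraf, a brake on STIM1 listed under its older symbol Tmem66, at 556 ± 22.8 and 569 ± 73.8 CPM. Plcg1, the phospholipase C of T cells, did not pass the filter at 5 to 13 counts per library. Plcg2 and Plcg1 were named after their values were seen.

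Pumps, channels and mitochondrial uptake genes had 10 positive and 11 negative estimates of 21. P2rx7, a cation channel gated by extracellular ATP, had the smallest unadjusted p of the whole set (0.00956). It was at 5.55, 5.14 and 3.93 CPM in wild type and at 1.44, 2.67 and 3.01 CPM in Lair1-/- mice 1 to 3. Every Lair1-/- mouse was below every wild type mouse, and the log2 fold change was -1.03 (95% interval -1.78 to -0.29), with an adjusted p of 0.9999 in edgeR. Mcub, a dampening subunit of the mitochondrial calcium uniporter listed as Ccdc109b, had means of 8.05 ± 0.987 and 5.47 ± 1.02 CPM and no overlap between groups, with -0.55 as its log2 fold change. Tmbim6, the list gene with the highest CPM, had a log2 fold change of 0.11.

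Of the 15 tested enzymes of inositol phosphates other than Itpkb, 11 had positive and 4 negative estimates, with a median log2 fold change of 0.13. Minpp1, an inositol phosphate phosphatase, was at 80.8, 72.2 and 77.3 CPM in wild type and at 87.4, 91.6 and 104 CPM in Lair1-/- mice 1 to 3. The groups did not overlap, and the log2 fold change was 0.30 (95% interval 0.07 to 0.52). Inpp4a, a phosphatase of phosphoinositides, had a log2 fold change of 0.50 (0.08 to 0.93) with overlapping groups, and Ip6k1, at the highest CPM of the list, 0.13. Neither Minpp1 nor Inpp4a passed after adjustment. The related kinase genes Itpka and Itpkc were at 0 to 2 and 6 to 22 counts per library, beside 16 to 41 for Itpkb.

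Calmodulin and its kinases had 4 positive and 5 negative estimates of 9. Camk4, a calmodulin-dependent kinase of T cells, had a mean of 45.1 ± 4.35 CPM in wild type and of 39.3 ± 2.22 CPM in Lair1-/- cells, and Camk2d was at 38.8 ± 2.74 and 33.0 ± 4.71 CPM. Both had groups that did not overlap, with log2 fold changes of -0.20 and -0.23 whose intervals included 0.

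Regulators of calcineurin had 3 positive and 8 negative estimates of 11, with a median of -0.01. Rcan1, an inhibitor of calcineurin that NFAT itself induces, was at 4.92, 7.11 and 6.39 CPM in wild type and at 6.49, 4.09 and 4.38 CPM in Lair1-/- mice 1 to 3. The groups overlapped, with a log2 fold change of -0.30 (95% interval -0.88 to 0.28). Akap5, an anchoring protein of calcineurin, had a log2 fold change of -0.50 (-1.07 to 0.08) that rested on 14.4 CPM in wild type mouse 3 against 6.02 to 7.49 CPM in the 5 other libraries. Ppia, which encodes the cyclosporin-binding protein cyclophilin A, was even at -0.02.

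Kinases and transport factors of NFAT had 12 positive and 4 negative estimates of 16, with a median of 0.10. The import receptor gene Kpnb1 averaged 206 ± 9.94 CPM in wild type mice and 239 ± 15.1 CPM in Lair1-/- mice. Its groups did not overlap, and the log2 difference of 0.22 (95% interval 0.02 to 0.41) did not pass. Psmd1 had a log2 fold change of 0.18 and Gsk3a, a kinase that rephosphorylates NFAT, of -0.05. Estimates for 11 other calcineurin substrates were above 0 for 5 and below 0 for 6, with Hdac4 at 0.31, Crtc1 at 0.39 and Hdac7 at -0.19. Among the other NFAT genes, Nfat5 had a log2 fold change of -0.21 and Nfatc2ip of 0.13.

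**Figure D4:**
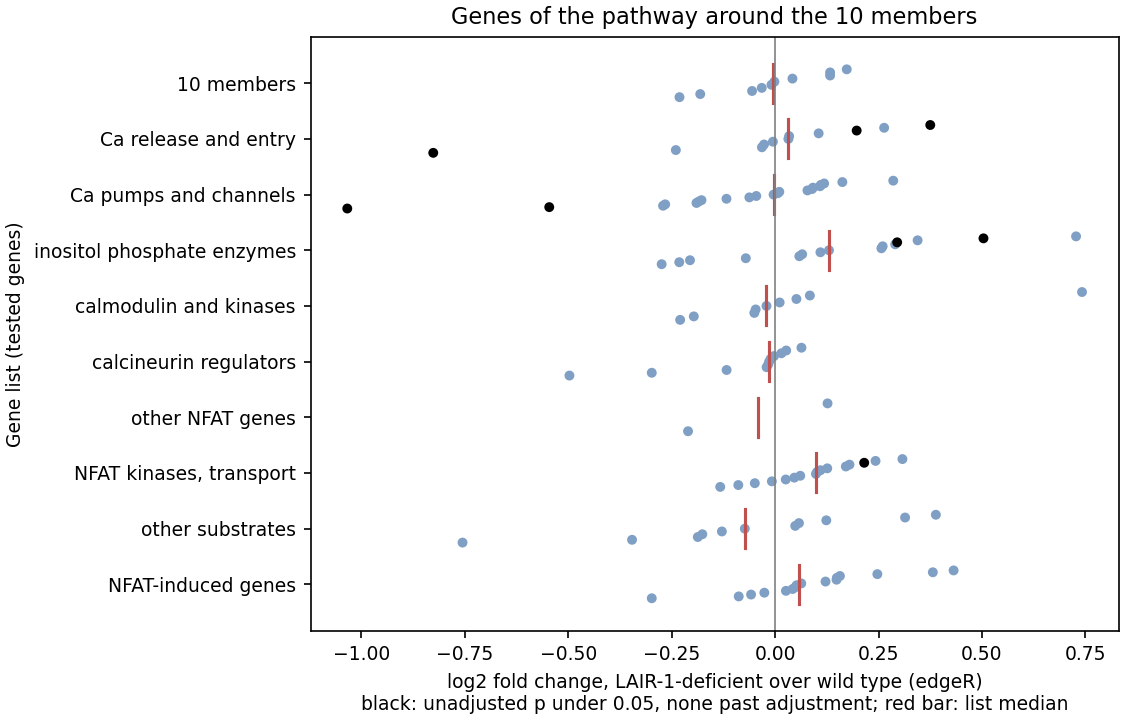
Log2 fold change (Lair1-/- over wild type, edgeR) of every tested gene in the lists around the pathway, 1 point per gene, with the list median as a red bar and unadjusted p under 0.05 in black. The 10 genes of the pathway itself lie between -0.23 and 0.17, list medians lie between -0.07 and 0.13, and no point passed after adjustment.

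A list of genes taken as induced through NFAT after T cell receptor triggering, called induced genes below, had 16 tested genes. Whether NFAT induces each of them in these cells was not tested. Dgka, the most abundant of them, had means of 1437 CPM in wild type and 1487 CPM in Lair1-/- mice, although no agent was given. The mouse 1 libraries of both genotypes were high for 7 of these 16 (43.8%), where each lay above all 4 other libraries. The same held for 4 of the 11 tested calcineurin regulators (36.4%), namely Ppia, Fkbp1a, Fkbp8 and Chp1, by 1.07-fold to 1.22-fold in the mean, and for 11.9% of all tested genes. Shares in the other pathway lists lay between 0 and 13.3%, and differences between lists were not tested. The lists were chosen with earlier results of these data known, so these shares are a description and no evidence of enrichment. Among the induced genes, and chosen after their values were seen, Nr4a1 was at 473 CPM in wild type mouse 1 and 588 CPM in Lair1-/- mouse 1 and at 56.7 to 113 CPM in the others. Egr2 reached 88.3 and 109 CPM in these libraries and 17.3 to 30.9 CPM elsewhere. Tnf reached 29.3 and 33.4 CPM, with 8.43 to 10.7 CPM elsewhere. Of the 10 pathway genes, Nfatc1 lay above the 4 other libraries in both mouse 1 libraries, by 1.13-fold in the mean, and Ppp3cb lay below them, at 0.833 of the mean of the others. Over all tested genes 11.9% lay above and 12.1% below in this way, so 1 of 10 in each direction is near the background. Rcan1 did not share the pattern.

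Between genotypes, the 16 tested induced genes had 12 positive and 4 negative estimates, with a median log2 fold change of 0.06 and 0 calls. Dgkz and Dgka, diacylglycerol kinases, had log2 fold changes of 0.15 and 0.05, and Irf8, a transcription factor, 0.38 (95% interval -0.38 to 1.14) with 17.6 CPM in Lair1-/- mouse 1 and 5.87 to 9.52 CPM elsewhere. Of the 31 induced genes listed, 13 were in the table but too low to be tested, among them Pdcd1 and Lag3. Without mouse 1 of both groups, 0 of the 10 pathway genes were called. In that fit the log2 fold change of Ppp3cc was -0.42 with an unadjusted p of 0.0301, and that of Nfatc1 was 0.01.

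**Figure D5:**
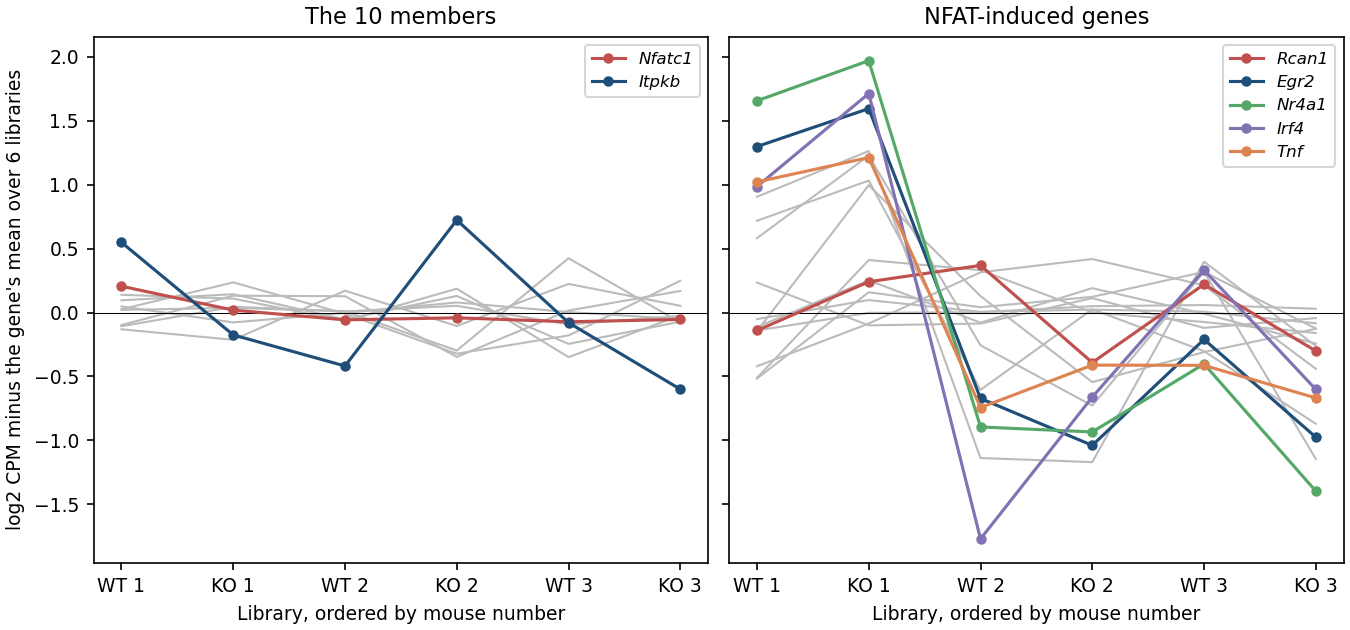
Log2 CPM of each gene minus its mean over the 6 libraries, for the 10 pathway genes (left) and 16 tested genes taken as NFAT-induced (right). Libraries are ordered by mouse number (WT, wild type, and KO, Lair1-/-). Nr4a1, Egr2, Irf4 and Tnf stand high in both mouse 1 libraries, where every pathway gene but Itpkb lies within 0.24 of 0.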

How the data were processed

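RNA of 6 libraries was analysed, 3 wild type and 3 LAIR-1-deficient. The authors deposited raw counts for each gene as whole numbers. BWA and the build mm10 are named in the submitters' processing notes, while the annotation, the counting tool and the strand setting were not given in the sources used. Columns were matched through the sample descriptions. The 4 spike-in rows (0 to 4 counts per library) were left out. Tests used edgeR 4.0.16 under R 4.3.3 (filterByExpr at a smallest count of 10, TMM, robust quasi-likelihood F test, two-sided, Benjamini-Hochberg over 9565 genes, threshold 0.05, no covariate). SEs and 95% intervals were derived from the F statistic. Log2 CPM used a prior count of 2. Exon lengths and coordinates are from GENCODE vM21 (GRCm38, the assembly of mm10), where the chromosomes of all 10 genes matched the table. No 2 libraries agreed within sampling noise (chi-square per gene 4.99 to 23.4). The script was tested on simulated data.

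The members and lists were chosen with earlier results of these data known. The text names the 10 members, Lair1 and markers, per list the 2 tested genes with the smallest unadjusted p and the most abundant gene, and the 5 genes most like the most variable member. A gene that this rule names is not reported here. Symbols missing from the table were matched through RefSeq synonyms. Alternatives were RLE factors, library totals, other count filters, DESeq2 1.42.0, limma-voom (limma 3.58.1, robust), mouse number as a block, and fits without single libraries or without mouse 1 of both groups. P-values test the difference between genotypes against the spread between mice of a genotype, as moderated over genes.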

Additional observations from a re-analysis of the deposited data

How the results depend on the processing

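Of the 10 genes, 0 were called under any of the 14 alternatives, with a smallest adjusted p of 0.958; the filter at a mean count of 30 left out Itpkb. Stim1, Orai1, Nfatc2 and Nfatc3 had positive and Ppp3cb and Ppp3cc negative log2 fold changes under every alternative run. Signs turned for estimates near 0. Itpkb was at 0.0104 with library totals, at 0.0051 with DESeq2, at 0.44 without mouse 1 of both groups, and between -0.48 and 0.33 when 1 library was left out. Without mouse 1 of both groups Ppp3r1 was at 0.0093 and Nfatc1 at 0.0134. Leaving out 1 library gave -0.10 to 0.13 for Ppp3ca and -0.11 to 0.0398 for Nfatc1. The estimates that kept their sign whenever 1 library was left out still moved by over 1.5 times in those fits. They ran from 0.0517 to 0.2934 for Stim1, 0.0388 to 0.295 for Orai1, 0.0463 to 0.217 for Nfatc2 and 0.0048 to 0.0645 for Nfatc3. Those below 0 ran from -0.2819 to -0.1146 for Ppp3cb, -0.3346 to -0.0555 for Ppp3cc and -0.0805 to -0.0066 for Ppp3r1. Over all genes, the count called higher was 1 with no filter (Bcl9l) and 0 to 1 when 1 library was left out. The count called lower was 2 with no filter (Prdm16 and Lair1), 0 at a mean count of 30, which leaves out Lair1, 0 without mouse 1 of both groups, and 0 to 2 when 1 library was left out. It was 0 without wild type mouse 1, and 2 without Lair1-/- mouse 2 (Tcf7l1 and Lair1).

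Deviations from the group means correlated across genes at 0.29, 0.01 and 0.07 for same-numbered mice 1 to 3. Between wild type and Lair1-/- mice of different number the correlations ran from -0.22 to 0.18, so mouse 1 had the highest value. The labels state no covariate, and the main fit did not treat the mice as pairs. With mouse number as a replicate block the count was 0 higher and 1 lower, with 0 of the 10 genes called. An unadjusted p under 0.05 in edgeR was then reached by 448 genes, against 311 in the main fit. Depth limits Itpkb most, at 16 to 41 counts per library.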
